A study of Mus musculus with 9 samples.

Results

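The comparison was of sorted blood-forming progenitors from mice with a Sox4 leukaemia against the same sorted fraction from healthy mice. It used 3 arrays of leukaemic mice that overexpress the transcription factor Sox4 and 3 arrays of wild type C57/BL6 mice, out of 9 arrays in the series. The other 3 arrays were from K/L leukaemic mice, which carry mutations in both alleles of Cebpa. They are used here to share the estimate of spread and to give a second leukaemia beside some values. A rise or fall given without a K/L value may be shared by both leukaemias. The sorted fraction, named FrII in the labels, was c-Kit-positive and Mac1 low or positive, and lacked lineage markers and Sca-1. The labels give blood as the tissue, C57/BL6 as the strain and an age of 2 to 4 months for all groups. They name no treatment, and how Sox4 overexpression was brought about is not given in the sources used here. The source names of both leukaemic groups add a CD45.1-negative, CD45.2-positive gate that the wild type source name lacks, so whether the wild type cells passed it is not settled.

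Genes were taken from the probe sets that carry exactly 1 gene symbol, and each gene was represented by its probe set of highest mean over all 9 arrays. Other probe sets of a gene can differ from it, and they are given for some genes only. The choice gave 18194 genes, of which 12826 were bright enough to be tested. Testing needed 3 or more of the 9 arrays above the 40th percentile of their own values. A gene dim on the wild type and K/L arrays could thus be tested only if the Sox4 arrays were bright, which fixed its direction. Likewise, a gene dim on the Sox4 and K/L arrays could be tested only if the wild type arrays were bright, which fixed its fall. All levels are log2 intensities as deposited, with a floor at 3, and a difference is the mean of the 3 Sox4 leukaemic arrays minus the mean of the 3 wild type arrays on that scale, so that 1 stands for a 2-fold change. A gene is called when its adjusted p, from limma with Benjamini-Hochberg adjustment over the tested genes, is under 0.05. The labels number the samples 1 to 3 within a group and say nothing further of their source, so the p-values cover no more than the spread among these samples.

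Sox4 belongs to the SRY-related HMG box family, whose members bend DNA on binding in its minor groove and are known for holding progenitor cells in an immature state. Overexpression of Sox4 is known to drive myeloid leukaemia in mice, and Cebpa encodes C/EBP alpha, a regulator of granulocyte formation. Granulocyte and monocyte progenitors normally hold much message for the proteins of the primary granules and little for those of mature monocytes, platelets or red cells.

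Some libraries stood apart from their group. Wild type array 3 lay more than 2-fold from wild type arrays 1 and 2 in 400 and 495 genes, whereas the other pairs of replicate arrays differed by that much in 18 to 69 genes. The median SD of a gene was 0.19 over the wild type arrays and 0.11 over the Sox4 arrays. Xist, which is expressed from the inactive X chromosome of females, read 4.96, 4.88 and 5.34 on wild type arrays 1, 2 and 3 and 12.1, 4.68 and 11.63 on Sox4 arrays 1, 2 and 3. The Y-linked gene Kdm5d read 10.75, 10.86 and 10.6 on the wild type arrays and 4.14, 9.91 and 9.01 on the Sox4 arrays. The wild type arrays and Sox4 array 2 thus had the male pattern and Sox4 array 1 the female pattern. Sox4 array 3 had signal of both genes, and whether it holds RNA of 1 mouse is not settled, so n counts arrays. Sex signal therefore differed between the groups, and its part in the differences was not tested. The ratio of the 3' to the 5' probe sets of Gapdh, a measure of RNA integrity and labelling, was 2.68 to 2.91 on the wild type arrays and 2.22 to 2.44 on the Sox4 arrays, and its part in the differences was not tested. Some differences that depended on wild type array 3 are given with and without it. A difference given once may depend on it too.

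Of the 12826 tested genes, 6135 were called (47.8 percent). Of these, 3427 were higher in the Sox4 leukaemic cells (26.7 percent) and 2708 lower (21.1 percent), and 1997 were both called and changed at least 2-fold (15.6 percent), with 1180 higher and 817 lower. The median difference over all tested genes was 0.03. The 3 values of one group lay wholly above those of the other in 7209 genes (56.2 percent). Changes of at least 8-fold were found in 86 genes that were higher and 94 that were lower. Because such a large share of genes was called, the gene groups described here are set against these percentages. Of the 1180 genes called and at least 2-fold higher, wild type array 3 was the lowest wild type array in 702 (59.5 percent), against 44 percent of all tested genes. Without it 6343 genes were called, 5672 of which were also called with it.

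**Figure D1:**
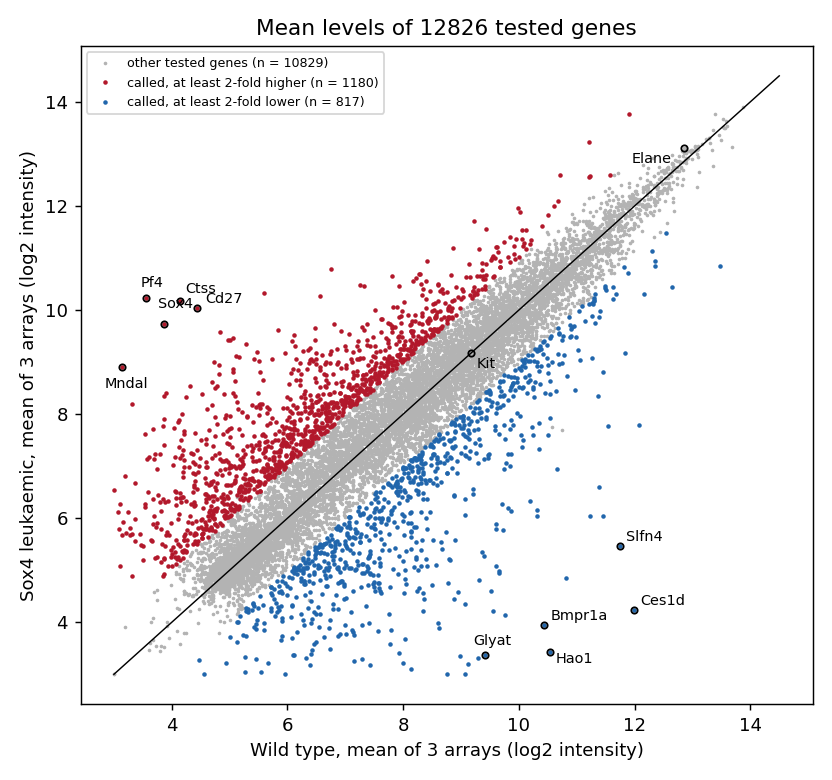
Mean log2 intensity of each tested gene over the 3 wild type arrays (horizontal axis) and the 3 Sox4 leukaemic arrays (vertical axis). Red points are the 1180 genes called and at least 2-fold higher, blue points the 817 called and at least 2-fold lower, grey points all others, and the line marks equal levels; circled genes are named in the text, with Kit and Elane on or near the line.

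Sox4 itself separated the groups on the probe set that represented it, which read 3.84, 3.81 and 3.97 on the wild type arrays and 9.73, 9.61 and 9.87 on the Sox4 arrays. All 3 leukaemic arrays lay far above the wild type arrays, by 5.87 (SE 0.12, adjusted p = 1.55e-09). The wild type mean lay under the 40th percentile of array values, and for genes with a group that dim the difference describes the log2 signal and no fold is given. Sox4 has 8 probe sets, and they did not move as one. Another probe set went from a mean of 4.55 to 8.16 and another from 3.73 to 6.12, both without overlap between the groups. One ran the other way without overlap, from a wild type mean of 8.33 to a Sox4 leukaemic mean of 7.45, 2 more overlapped, and 2 lay at the floor on all 6 arrays. Wild type cells thus had clear Sox4 signal on some probe sets and almost none on others. Which transcript each probe set detects is not known here. Sox4 was also high in the K/L leukaemic cells, at a mean of 10.67.

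Cebpa, the granulocyte regulator, read 9.78, 9.67 and 9.31 in wild type and 10.64, 10.5 and 10.61 in Sox4 leukaemic cells. It was higher by 0.99 (SE 0.13, adjusted p = 0.000155), with no overlap. Spi1, which encodes the myeloid regulator PU.1, was at 8.14 in wild type and 8.09 in Sox4 leukaemic cells (adjusted p = 0.801).

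Among genes of the sort gate, Kit, the stem cell factor receptor used in the sort, read 9.17, 9.25 and 9.11 in wild type and 9.1, 9.11 and 9.34 in Sox4 leukaemic cells, so the groups overlapped (difference 0.01, adjusted p = 0.956). The T cell genes Cd3e, Cd4 and Cd8a were dim in both groups and did not pass the test. Cd34, a progenitor surface protein, was lower by 0.74, and the Fc gamma receptor genes Fcgr2b and Fcgr3, which mark granulocyte and monocyte progenitors, were lower by 1.36 and 0.67. Ptprc, which encodes CD45, was lower by 0.49. Itgam, the gene of the Mac1 alpha chain, was too dim to be tested in both groups, at means of 4.91 and 4.2, and Ly6a, the gene of Sca-1, was not analysed here.

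Among the largest rises was Pf4, the gene of the platelet chemokine PF4. It read 3.52, 3.81 and 3.34 on wild type arrays 1, 2 and 3 and 9.82, 10.61 and 10.31 on the Sox4 arrays. The wild type values were close to the floor and every Sox4 array was bright, a difference of 6.69 (SE 0.19, adjusted p = 1.2e-08). Ctss encodes cathepsin S, a lysosomal protease that prepares MHC class II for peptide loading. It read 4.48, 4.46 and 3.48 in wild type and 10.23, 10.23 and 10.08 in Sox4 leukaemic cells. Its difference of 6.04 (SE 0.24) came with groups far apart. Mndal, a p200 family gene that interferon induces, rose from values of 3.42, 3.01 and 3 to 9.14, 8.71 and 8.88. Cd27, a TNF receptor family member used to divide progenitors and lymphocytes, rose from 4.72, 3.95 and 4.61 to 10.19, 9.72 and 10.22. These 2 genes were higher by 5.77 and 5.61. The genes of the largest rises and falls were chosen to have no overlap between the groups. K/L leukaemic means were 3.64 for Pf4, 10.07 for Ctss, 9.05 for Mndal and 6.47 for Cd27.

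Cavin2, which encodes a protein of caveolae that is abundant in platelets, read 3.66, 3 and 3.26 in wild type and 7.94, 8.25 and 8.37 in Sox4 leukaemic cells. The others of the 15 largest rises were Tceal8, Ifi209, Ica1, Fyb, Prg2, Car2, Tgfbi, Slc2a3 and Cdkn2c, with differences between 4.12 and 4.74. Ica1, which encodes an islet cell autoantigen found on secretory vesicles, read 4.06, 3.82 and 3.83 in wild type and 8.62, 8.53 and 8.07 in Sox4 leukaemic cells. Slc2a3, the gene of the high-affinity glucose transporter GLUT3, read 4.29, 4.55 and 4.1 against 8.44, 8.64 and 8.53. Both sets of wild type arrays were dim and both sets of leukaemic arrays bright, with 4 of 4 Slc2a3 probe sets higher. K/L leukaemic means of Ica1 and Slc2a3 were 4.14 and 4.77. Both genes therefore passed the brightness filter through the Sox4 arrays, and their direction was fixed beforehand. Ifi209, another p200 family gene, depended in size on wild type array 3, with a difference of 4.73 that was 4.1 without it.

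Among genes above the 40th percentile of array values in both groups, where neither mean is near the floor, further large rises were seen. Hmgn3, which encodes a nucleosome-binding protein, read 5.97, 6.09 and 5.45 in wild type and 9.72, 9.43 and 9.66 in Sox4 leukaemic cells (difference 3.77, SE 0.21, adjusted p = 7e-07). Ahnak, the gene of a giant scaffold protein at the cell membrane, was higher by 3.93 on the probe set used, while its other 3 probe sets differed by 0.18, 0 and -0.4. Mef2c, a transcription factor of myeloid and lymphoid progenitors, was higher by 3.72, or 3.04 without wild type array 3. Map3k20, Zcchc3 and Arap2 were higher by 3.71, 3.54 and 3.42. Wild type array 3 was the lowest of its group for all 3 of them, and without it their differences were 2.73, 2.62 and 2.4. K/L leukaemic means were 9.12 for Ahnak, 9.6 for Map3k20, 7.09 for Arap2, 6.54 for Mef2c, 5.34 for Hmgn3 and 3.38 for Zcchc3.

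The largest falls included several genes better known from liver, kidney, muscle or brain. Ces1d, which encodes a carboxylesterase, read 11.85, 12.09 and 12.02 in wild type and 4.11, 4.18 and 4.39 in Sox4 leukaemic cells. This bright wild type signal was lower by 7.76 (SE 0.11, adjusted p = 1.3e-10) in the leukaemic cells, whose mean lay under the 40th percentile of array values. With a K/L leukaemic mean of 4.14, Ces1d passed the brightness filter through the wild type arrays, so its fall was fixed beforehand. Hao1, the gene of a peroxisomal hydroxyacid oxidase, read 10.84, 10.79 and 9.99 in wild type and 3.57, 3 and 3.7 in Sox4 leukaemic cells. Glyat, the gene of a glycine acyltransferase, read 9.37, 9.42 and 9.46 against 3.34, 3.38 and 3.38. Ugt8a and Klhl41, which encode a galactosyltransferase and a muscle kelch protein, had wild type means of 9.07 and 8.75 and lay at the floor or within 0.01 of it on all Sox4 arrays. Their falls of 6.07 and 5.74 are therefore lower bounds. Aspa, the gene of aspartoacylase, was lower by 5.96.

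Genes of the main plasma proteins of liver, Alb, Apoa1, Apoa2, Apob and Ttr, and the liver enzyme gene Tat had wild type means between 5.09 and 6.15 and did not pass the test, so of 12 tested genes in the list named for liver, 6 were lower, 0 higher and 6 not called. The 6 that were lower were put into that list with their values already known, and their count is a description. Glyat, Klhl41 and Aspa had K/L leukaemic means of 7.68, 7.51 and 8.74, well above the Sox4 leukaemic levels. The tested difference between the 2 leukaemias was -4.31, -4.51 and -3.89 for these genes. Hao1, Ces1d and Ugt8a were low or at the floor in both leukaemias. Like Ces1d, Hao1 and Ugt8a passed the brightness filter through the wild type arrays, so the direction of their falls was fixed beforehand.

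Other strong falls were in genes of signalling and of the cell skeleton. Bmpr1a, a type I receptor for bone morphogenetic proteins, read 10.28, 10.42 and 10.62 in wild type and 3.91, 3.84 and 4.08 in Sox4 leukaemic cells, with 6 of 6 probe sets lower by 0.74 to 6.49. Slfn4, a schlafen gene of myeloid cells, read 11.92, 11.77 and 11.57 against 5.72, 5.04 and 5.63. The groups were 6.49 and 6.29 apart in these genes, and K/L leukaemic means of 3.66 and 4.52 were low as well. Mdk, the gene of the growth factor midkine, was lower by 5.41, Tmeff1, which encodes a membrane protein with follistatin and EGF-like domains, by 5.62, and Ryr2, a calcium release channel of heart muscle and neurons, by 5.36. Tubb2b, a beta tubulin, was lower by 5.18 and Fscn1, which encodes the actin-bundling protein fascin, by 4.91. The 4 probe sets of Fscn1 had differences of -7.65 to 0.34. Olfm4, a gene of a neutrophil subset, read 9.14, 9.2 and 9.01 in wild type and 3, 3.4 and 3.19 in Sox4 leukaemic cells. It differed from the last 5 genes in its K/L leukaemic level of 7.81. Rgs5, which encodes a regulator of G protein signalling, was lower by 5.02. Ct55, an X-linked testis gene, was lower by 5.98, or by 5.3 without wild type array 3. Bmpr1a, Tmeff1 and Ryr2 were dim on the Sox4 arrays and had K/L leukaemic means of 3.66, 4.26 and 4.43. These 3 genes passed the brightness filter through the wild type arrays, so the direction of their falls was fixed beforehand.

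**Figure D2:**
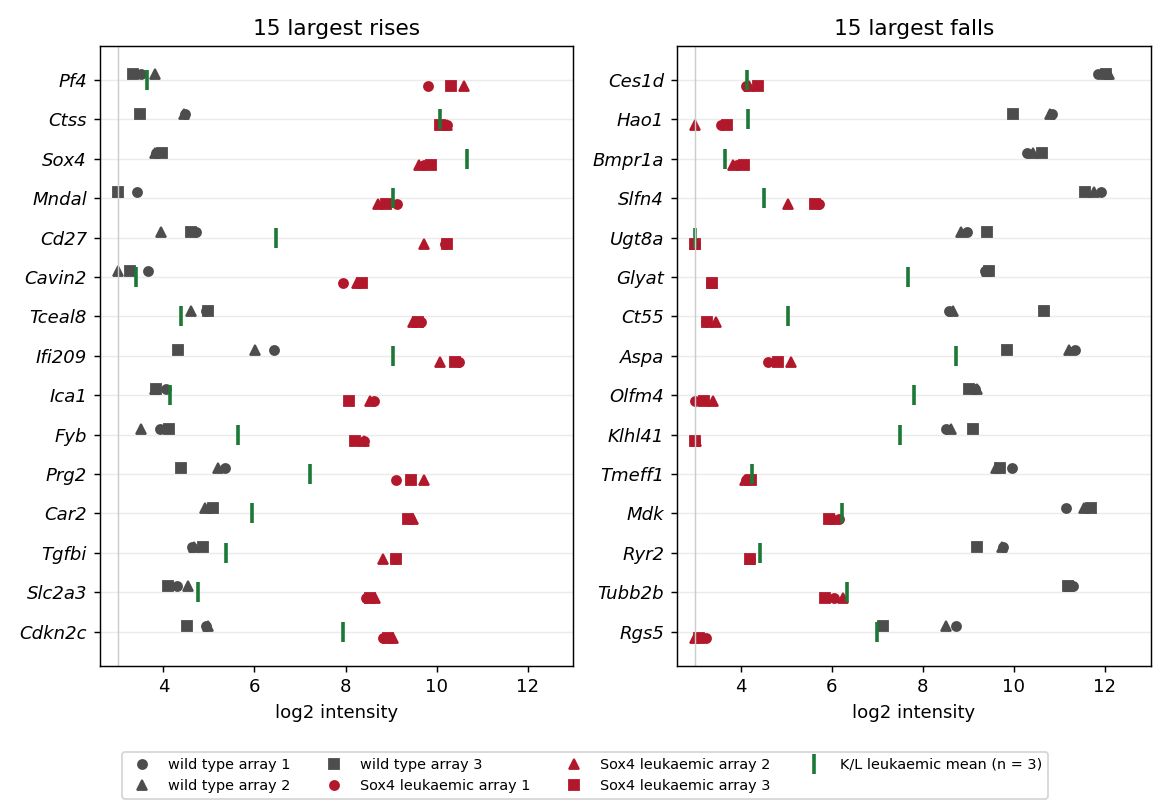
Log2 intensity on each array for the 15 genes with the largest rises (left) and the 15 with the largest falls (right); grey symbols are the 3 wild type arrays, red symbols the 3 Sox4 leukaemic arrays, green bars the mean of the 3 K/L leukaemic arrays, and the thin vertical line the floor at 3. Only genes without overlap between the groups were eligible. Wild type array 3 stands apart from the other wild type arrays in Ifi209, Ct55 and Rgs5 among others.

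Promoter letters were read because the overexpressed protein binds DNA. The RefSeq promoter table of assembly GRCm38.p6 was searched in the 250 bases before each start for AACAAT and AACAAAG, the short words that SOX proteins are known to prefer, on both strands. No single position can match both words. Either word was present in 82 of 964 genes called and at least 2-fold higher (8.51 percent), in 65 of 654 called and at least 2-fold lower (9.94 percent) and in 890 of 10396 tested genes with a window (8.56 percent). The share among genes that rose was thus close to the share among all genes. Of 54 genes with the largest changes, 42 had a window and 8 of these held a word. Shown here are the windows of Pf4 (chr5:90772185-90772434, plus strand) and Cavin2 (chr1:51288876-51289125, plus strand), platelet genes with the largest rises, and of Glyat (chr19:12633058-12633307, plus strand) and Tmeff1 (chr4:48584924-48585173, plus strand), from the largest falls, each 5' to 3' with the word, on either strand, in capitals.
Pf4: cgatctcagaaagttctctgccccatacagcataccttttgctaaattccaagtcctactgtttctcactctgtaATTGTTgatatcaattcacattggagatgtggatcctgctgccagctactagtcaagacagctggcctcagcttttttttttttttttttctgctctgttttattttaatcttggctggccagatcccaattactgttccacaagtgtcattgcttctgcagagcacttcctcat
Cavin2: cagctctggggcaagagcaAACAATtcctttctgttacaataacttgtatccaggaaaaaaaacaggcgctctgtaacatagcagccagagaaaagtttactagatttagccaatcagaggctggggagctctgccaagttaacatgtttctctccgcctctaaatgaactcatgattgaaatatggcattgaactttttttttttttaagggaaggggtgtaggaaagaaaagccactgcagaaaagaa
Glyat: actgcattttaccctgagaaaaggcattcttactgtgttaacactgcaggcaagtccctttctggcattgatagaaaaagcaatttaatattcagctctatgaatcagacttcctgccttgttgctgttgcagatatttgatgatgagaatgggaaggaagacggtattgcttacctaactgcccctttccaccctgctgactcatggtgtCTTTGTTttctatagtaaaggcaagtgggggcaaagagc
Tmeff1: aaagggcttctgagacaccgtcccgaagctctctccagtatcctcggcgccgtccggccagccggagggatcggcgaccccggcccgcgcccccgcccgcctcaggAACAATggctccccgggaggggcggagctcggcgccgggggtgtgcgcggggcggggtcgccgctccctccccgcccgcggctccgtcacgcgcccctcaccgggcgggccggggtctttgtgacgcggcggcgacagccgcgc
The word starts 175 bases before the listed start in Pf4, 231 in Cavin2, 39 in Glyat and 144 in Tmeff1. A match is a match of letters only.

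Genes of monocytes and macrophages were mostly higher in the Sox4 leukaemic cells. Of 24 tested members, 16 were higher, 5 lower and 3 not called, with a median difference of 1.46 against 0.03 for all tested genes. Tgfbi, an extracellular matrix protein gene of monocytes, read 4.63, 4.67 and 4.88 in wild type and 9.08, 8.83 and 9.11 in Sox4 leukaemic cells, and 4 of 4 probe sets were higher without overlap of these arrays. Pld4, a lysosomal nuclease gene, was higher by 4.05, and Mpeg1, the gene of the pore-forming protein perforin-2, read 7.3, 7.24 and 7.22 in wild type and 10.6, 10.44 and 10.44 in Sox4 leukaemic cells. Every Sox4 array lay about the same distance above the wild type arrays, at a difference of 3.24 (SE 0.11, adjusted p = 3.75e-08). Klf4, a regulator of monocyte differentiation, was higher by 3.48, the chemokine receptor gene Ccr2 by 2.46 and Csf1r, the receptor for macrophage colony-stimulating factor, by 1.62. In bulk RNA, fewer or more cells of a type and less or more RNA per cell cannot be told apart.

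Not all monocyte and macrophage genes followed. Adgre1, which encodes an adhesion G protein-coupled receptor of macrophages, read 8.28, 8.08 and 8.54 in wild type and 4.95, 5.18 and 5.11 in Sox4 leukaemic cells. Vcam1, an adhesion molecule of erythroblast island macrophages and endothelium, read 11.78, 11.84 and 10.98 against 7.67, 7.86 and 7.79. The leukaemic arrays were lowest throughout for both, by 3.22 and 3.76. The summed linear level of the list's 31 members on the arrays was 12187 to 13524 on the wild type arrays and 16929 to 17802 on the Sox4 arrays.

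MHC class II and dendritic cell genes were called only upwards, with 11 of 15 tested members higher, 0 lower and a median difference of 1.22. Without Sox4 array 2 or wild type array 1, 1 member was also called lower. H2-DMa, a chaperone that loads peptides on MHC class II, read 5.36, 5.08 and 5.42 in wild type and 9.48, 9.22 and 9.35 in Sox4 leukaemic cells. H2-Ab1, a chain of the class II molecule itself, read 5.06, 5.26 and 4.64 against 7.6, 7.74 and 7.79. The 2 groups did not overlap in either gene, and the differences were 4.06 (SE 0.11, adjusted p = 1.2e-08) and 2.73 (SE 0.24, adjusted p = 1.29e-05). Flt3, a receptor of early and dendritic progenitors, was higher by 3.24. Irf8, the transcription factor that directs progenitors to monocytes and dendritic cells, read 7.38, 7.33 and 5.54 in wild type and 10.69, 10.8 and 10.86 in Sox4 leukaemic cells. Wild type array 3 was far below its group here, and the difference of 4.03 was 3.43 without it. Flt3, H2-Ab1 and Irf8 were also higher in the Sox4 than in the K/L leukaemic cells, by 2.92, 1.71 and 2.55.

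Lysosomal genes were called higher in 19 and lower in 8 of 41. Beside Ctss, the prosaposin gene Psap was higher by 1.72 with 2 of 2 probe sets, Ctsc, whose protease activates granule enzymes, by 1.61, and Ctsb by 1.27. Mitf and Tfe3, which encode related transcription factors of lysosomal genes, were higher by 1.98 and 1.78. Ctsf, another cathepsin gene, was lower by 2.98 on the probe set used, while only 1 of its 2 probe sets was lower.

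Several platelet and red cell genes that were dim in wild type were higher in Sox4 leukaemic cells. Those also dim in K/L leukaemic cells, such as Pf4 and Cavin2 at means of 3.64 and 3.39, could be tested only through bright Sox4 arrays. Their rise was therefore fixed by the brightness filter, and members dim on all arrays are not in the counts of tested members. In the megakaryocyte and platelet list 16 of 27 tested members were higher and 5 lower, with a median of 0.51. The summed linear level of its 31 members on the arrays overlapped between the groups, at 6760 to 7713 on the wild type and 6028 to 7609 on the Sox4 arrays. After Pf4 and Cavin2, Rab27b, which is needed for platelet granules, was higher by 2.23, and Selp, the gene of the adhesion protein P-selectin, by 2.08. Itgb3, the beta chain of the fibrinogen receptor, read 11.04, 10.99 and 10.84 in wild type and 9.54, 9.88 and 9.68 in Sox4 leukaemic cells. Against the direction of the list, it was bright in wild type and lower in every Sox4 array, by 1.25. Thbs1, the thrombospondin gene, was lower by 2.5 and the transcription factor gene Nfe2 by 1.15. With a stricter filter on dim genes 17 members were tested, and 9 of these were higher.

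In the red cell list 11 of 22 tested members were higher and 2 lower, with a median of 0.59. Car2 and Car1, carbonic anhydrases of red cells, showed the largest rises. Car2 read 5.03, 4.91 and 5.1 in wild type and 9.41, 9.48 and 9.38 in Sox4 leukaemic cells, and Car1 read 4.31, 4.2 and 4.02 against 7.83, 8.2 and 7.99. The 3 arrays of each group lay close together, and the differences were 4.41 and 3.83. Aqp1, a water channel of red cells, was higher by 2.68 and the transferrin receptor gene Tfr2 by 1.99. Gata1, a transcription factor of both lineages, was higher by 1.37. The globin gene Hba-a1 did not pass the test (difference 0.13, adjusted p = 0.53). Car1 and Aqp1 were near the wild type level in K/L leukaemic cells, at 4.18 and 3.88, and the Sox4 leukaemic cells were higher than these by 3.83 (adjusted p = 8.77e-08) and 2.55 (adjusted p = 5.88e-08). Both genes passed the brightness filter through the Sox4 arrays, so the direction of these differences was fixed beforehand.

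Mpo and Elane, the genes of myeloperoxidase and neutrophil elastase, had means of 13.88 and 12.85 in wild type and 13.9 and 13.12 in Sox4 leukaemic cells (adjusted p = 0.843 and 0.212). Without wild type array 3 the Elane difference was 0.46 with an adjusted p of 0.0167. Both were bright in all 6 arrays, and of 16 tested members of the primary granule list 4 were higher and 4 lower. The share called was 50 percent, near the 47.8 percent of all tested genes. Fcnb, a ficolin gene, was higher by 2.83 and the protease gene Prtn3 by 0.78, while Mgst1, a glutathione transferase, was lower by 1.31 and lysozyme, Lyz2, by 0.94.

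Genes of the later specific and gelatinase granules were split. Of 19 tested members 9 were higher and 8 lower, while the summed linear level of the 22 members on the arrays was lower, at 20390 to 29344 on the wild type and 9862 to 10786 on the Sox4 arrays. S100a8 and S100a9 encode the subunits of calprotectin. S100a9 read 13.61, 13.65 and 13.14 in wild type and 10.83, 10.88 and 10.82 in Sox4 leukaemic cells, a fall of 2.62, and S100a8 fell by 2.19. Olfm4 and Padi4, the latter a histone-modifying enzyme gene of neutrophils, were lower by 5.92 and 2.17. Ltf, the lactoferrin gene, read 4.86, 5.18 and 5.09 in wild type and 7.71, 7.06 and 7.34 in Sox4 leukaemic cells, and Wfdc21 and Cybb were higher by 2.47 and 2.21. Without wild type array 3 the differences of Wfdc21 and Cybb were 2.02 and 1.63. Without Sox4 array 1 only 5 of the 19 were called higher, while 8 were lower.

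Eosinophil genes moved in both directions. Prg2, the gene of major basic protein, read 5.35, 5.21 and 4.39 in wild type and 9.1, 9.73 and 9.44 in Sox4 leukaemic cells, and Epx, eosinophil peroxidase, read 3.96, 4.37 and 4.22 against 7.24, 7.45 and 7.24. These granule protein genes were higher by 4.44 and 3.12. The surface receptor genes fell: Siglecf read 10.9, 10.9 and 10.14 in wild type and 8.32, 8.57 and 8.45 in Sox4 leukaemic cells, and Il5ra, the interleukin 5 receptor, was lower by 1.82. In the K/L leukaemic cells Il5ra stood at 9.01, which was above wild type, and the Sox4 minus K/L difference was -3.96 (adjusted p = 1e-06). In all, 3 of 7 tested members were higher and 3 lower. Of the mast cell and basophil genes, Ms4a2, a chain of the IgE receptor, was higher by 2.34 and the cytokine gene Il4 lower by 2.

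Lipid mediator genes were called in both directions, with 8 of 21 higher and 8 lower. The prostaglandin E2 receptors Ptger3 and Ptger4 read 3.93, 4.24 and 3.99 and 5.02, 5.31 and 5.13 in wild type. In Sox4 leukaemic cells they read 7.27, 7.19 and 7.05 and 8.17, 8.02 and 8.12. Both receptors were higher in every Sox4 array than in any wild type array, by 3.11 and 2.95, and the leukotriene receptor gene Cysltr1 was higher by 2.21. The enzyme genes Alox15, Ptgds and Tbxas1 were lower by 2.12, 1.98 and 1.27, and the prostacyclin receptor gene Ptgir by 1.85.

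Interferon-stimulated genes were called in 1 direction, with 21 of 28 tested members higher, 0 lower, 7 not called and a median of 0.92. Oasl2 and Oas1a, of the family that senses viral RNA, were higher by 3.01 (SE 0.36, adjusted p = 8.89e-05) and 2.65. Oasl2 read 4.11, 3.94 and 4.38 in wild type and 8.02, 6.37 and 7.06 in Sox4 leukaemic cells. The Sox4 arrays kept one order in this list. Array 1 was the highest of the Sox4 arrays in 21 of the 21 called genes and array 2 the lowest in 18 (85.7 percent), while over all genes called higher array 2 was lowest in 33.3 percent. The summed linear level of its 31 members on the arrays was 3153 to 3566 on the wild type arrays and 5318 to 8135 on the Sox4 arrays. Without Sox4 array 1, 16 members were called higher with a median of 0.7, and without Sox4 array 2, 22 with a median of 1.06.

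The membrane proteins Ifitm3 and Ifitm1, which block virus entry, set the 2 leukaemias apart. Ifitm3 read 10.56, 10.7 and 8.69 in wild type and 12.15, 11.62 and 12.1 in Sox4 leukaemic cells, while the K/L mean was 4.83. Wild type array 3 was low again, and the rise of 1.97 (adjusted p = 0.0048) was 1.32 without it. Ifitm1 rose by 1.94, or by 1.39 without that array. The Sox4 minus K/L difference was 7.13 for Ifitm3 and 5 for Ifitm1. Sensors of microbial products were raised in part, with 16 of 32 tested genes higher and 8 lower. Tlr2, a receptor for bacterial lipoproteins, was higher by 1.59, its adaptor gene Myd88 by 1.01 and Nod1 by 1.59, while Irak3, a brake on Toll-like receptor signalling, was lower by 0.84.

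**Figure D3:**
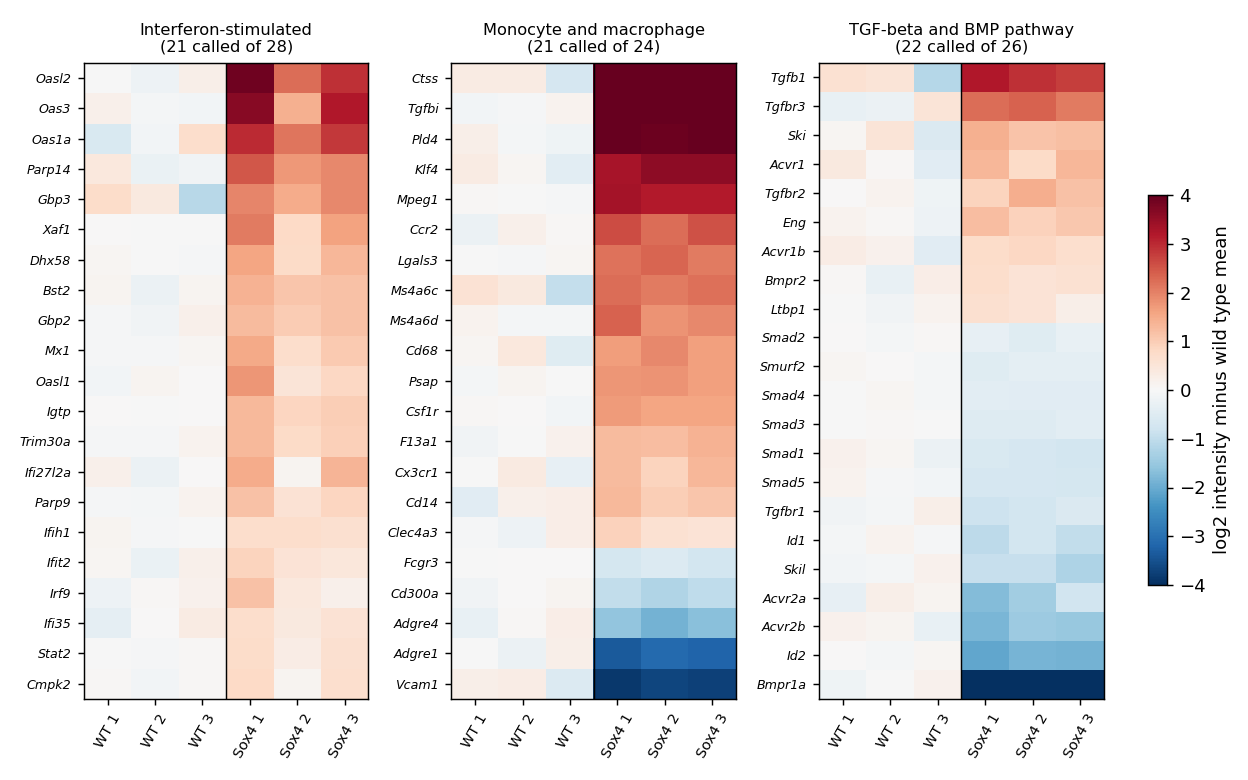
Log2 intensity on each of the 3 wild type and 3 Sox4 leukaemic arrays minus the wild type mean, for the called members of 3 gene lists; red is above and blue below the wild type mean, and colours are capped at differences of 4 either way. Sox4 array 1 is the highest of its group in each of the 21 interferon-stimulated genes, and in 9 of the 16 monocyte genes and 6 of the 9 TGF-beta genes that were called higher.

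Receptor genes for growth factors were called higher in 13 of 26 and lower in 3, or 5 without wild type array 3. Il1r1, the interleukin 1 receptor, read 4.44, 4.53 and 4.45 in wild type and 6.92, 6.95 and 7.17 in Sox4 leukaemic cells. The other Il1r1 probe set had a difference of 0. Csf2ra and Csf2rb2, chains of receptors for granulocyte-macrophage colony-stimulating factor and interleukin 3, were higher by 2.42 and 1.93. Il6st, the signalling chain gp130 of the interleukin 6 receptor family, read 6.77, 6.85 and 5.55 against 9.25, 9.25 and 9.32. It was higher by 2.88, or by 2.46 without wild type array 3. Its K/L leukaemic mean of 5.07 lay below wild type, and the Sox4 minus K/L difference was 4.21.

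The TGF-beta and BMP pathway had 22 of its 26 tested genes called, 9 higher and 13 lower, with a median of -0.11. The ligand gene Tgfb1 read 7.08, 7 and 5.33 in wild type and 9.66, 9.38 and 9.24 in Sox4 leukaemic cells, a rise of 2.95 (SE 0.4, adjusted p = 0.000203). Without wild type array 3 the rise was 2.38. Among receptors, Tgfbr3, Tgfbr2 and Eng were higher by 2.23, 1.16 and 1.07, while Bmpr1a and the activin receptor gene Acvr2b were lower by 6.49 and 1.59. The 3 probe sets of Tgfbr2 had differences of 0 to 1.16. The target Id2, an inhibitor of basic helix-loop-helix factors, was lower by 1.94. Skil, a repressor of SMAD proteins, was lower by 1.02.

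Wnt genes were called higher in 11 and lower in 6 of 35. That is 48.6 percent called, near the 47.8 percent of all tested genes. Of the frizzled receptors, Fzd5 read 4.58, 4.39 and 4.34 in wild type and 7.51, 7.22 and 7.22 in Sox4 leukaemic cells, and Fzd3 read 7.84, 8.06 and 8.76 against 5.34, 5.16 and 5.13. Fzd5 was higher in every Sox4 array by 2.88 and Fzd3 lower in every Sox4 array by 3.01. The other probe set of Fzd5 differed by 0.18, while the 6 probe sets of Fzd3 were lower by 2.11 to 3.17. Tcf7l2, a transcription factor at the end of the Wnt pathway, was higher by 2.51 and the cyclin gene Ccnd1, a known target, by 1.56. The 4 probe sets of Tcf7l2 were higher by 0.05 to 2.51. In the Notch list 8 of 20 were higher and 2 lower, 50 percent called and so near that share too. Among them Notch1 was higher by 1.12 and Notch2 by 1.46, and Rbpj, the DNA-binding partner of the receptors, was lower by 0.81.

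Homing and adhesion genes were called higher in 11 and lower in 6 of 29, while the summed linear level of the 32 on the arrays was lower, at 21077 to 26161 on the wild type and 19744 to 20045 on the Sox4 arrays. Selplg, the gene of the P-selectin ligand, was higher by 2.93 and the integrin gene Itgal by 1.87. Without wild type array 3 these differences were 2.56 and 1.44. Pecam1, an adhesion molecule of blood and endothelial cells, read 10.4, 10.45 and 9.92 in wild type and 8.22, 8.44 and 8.31 in Sox4 leukaemic cells, and was lower by 1.93. Cd33, an antigen used to target human myeloid leukaemia, was lower by 2.34. Among actin regulators Rhou was lower by 3.02 and Fyb, an adaptor of T cell and platelet adhesion, higher by 4.48.

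Of 10 tested genes of the SOX family, 3 were higher and 1 lower, or 2 lower without wild type array 3. The share called was 40 percent, against 47.8 percent of all tested genes. Sox12, the closest relative of Sox4 along with Sox11, read 6.53, 6.22 and 5.87 in wild type and 8.71, 8.7 and 8.56 in Sox4 leukaemic cells. All 3 of its probe sets were higher, by 0.39 to 2.45, and the difference on the probe set used was 2.45 (adjusted p = 2.56e-06). The K/L leukaemic mean of Sox12 was 5.73, below the Sox4 leukaemic cells by 2.92 (adjusted p = 9.71e-07).

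HoxA cluster genes and their partners, which sustain self-renewal in leukaemia, were higher in 5 and lower in 2 of 12. The share called was 58.3 percent, against 47.8 percent of all tested genes. The 2 falls did not all hold without Sox4 arrays 1, 2 or 3 or wild type arrays 1 or 2, where 0 or 1 were called. The summed linear level of the 17 members on the arrays overlapped between the groups. This level was 5431 to 6509 on the wild type and 5481 to 5752 on the Sox4 arrays. Meis1 read 4.41, 3.95 and 4.26 in wild type and 7.7, 7.54 and 7.81 in Sox4 leukaemic cells, and Hoxa9 read 5.62, 5.45 and 5.76 against 7.41, 7.26 and 7.28. The other Hoxa9 probe set went from a mean of 3.74 to 9.25, a difference of 5.5. On the probe sets used they were higher by 3.47 and 1.71 without overlap and lay near the wild type level in K/L leukaemic cells, at 4.3 and 5.44. Meis1 was dim in wild type and K/L leukaemic cells and passed the brightness filter through the Sox4 arrays, so its direction was fixed beforehand. Hoxa3 and Pbx3 were higher by 2.07 and 1.57, while the 4 probe sets of Hoxa3 had differences of -0.02 to 2.07. Of 20 stem and early progenitor genes 10 were higher and 4 lower. The summed linear level of the 26 on the arrays was 16178 to 16827 on the wild type and 15308 to 15536 on the Sox4 arrays. Tek, the angiopoietin receptor, was higher by 2.7 and Hoxb4 by 2.56.

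Lineage transcription factors moved in a mixed way, with 16 of 33 higher and 6 lower. Beside Irf8 and Klf4, the platelet and red cell regulator Gfi1b was higher by 2.02 and the monocyte and lymphocyte factor Klf2 by 2.5. Ikzf2, which encodes Helios, read 10.47, 10.49 and 10.62 in wild type and 8, 7.87 and 7.88 in Sox4 leukaemic cells. It was lower in every array, by 2.61, as was Ets1 by 2.44 and Bcl11b, a T cell factor that was bright in these wild type cells at 9.07, by 4.72. Kruppel-like, AP-1 and Egr genes, many of which respond to stimulation within minutes, were higher in 17 and lower in 6 of 33. Egr1 and Fosl2 were higher by 3.86 and 3.21, with adjusted p of 0.000854 and 8.1e-05, and Klf9 by 1.62. Without wild type array 3 the Fosl2 difference was 2.71. Klf9 was bright in Sox4 leukaemic cells and near the floor in K/L leukaemic cells at 3.09, a difference of 6.85 between the leukaemias on the probe set used, and 7 of 7 probe sets were higher than in wild type, by 0.28 to 1.62.

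Chromatin genes were more often lower than higher, 17 against 13 of 44, with a median of -0.12. Kdm5b, a histone H3 lysine demethylase, read 10.64, 10.65 and 10.23 in wild type and 8.71, 8.95 and 8.71 in Sox4 leukaemic cells. Dnmt3a, a DNA methyltransferase mutated in human myeloid leukaemia, read 12.14, 11.94 and 11.57 against 10.74, 10.8 and 10.62. The falls of 1.71 and 1.16 were seen on 4 of 4 and 5 of 5 probe sets. The Polycomb gene Bmi1 was lower by 0.89, Tet1 by 1.29, and the methyltransferase gene Kmt2d was higher by 1.53.

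Cell division genes were called upwards but by small amounts. Of 41 tested mitosis genes 23 were higher and 0 lower, and of 43 DNA replication genes 22 were higher and 0 lower, each with a median of 0.34. Mki67, the proliferation antigen, read 11.32, 11.51 and 10.85 in wild type and 12.52, 12.68 and 12.53 in Sox4 leukaemic cells. It was higher by 1.35 (SE 0.16, adjusted p = 7.61e-05), and the thymidine kinase gene Tk1 and the chromosomal passenger gene Incenp were higher by 1.7 and 1.64, although 1 of the 5 Incenp probe sets was lower without overlap, by 0.52. Of 44 DNA repair genes 22 were higher and 7 lower.

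In the list that joins CDK inhibitors, D and E cyclins and the Rb pathway, 13 of 22 tested genes were higher and 3 lower. Cdkn2c, which encodes the CDK4 and CDK6 inhibitor p18, read 4.94, 4.99 and 4.53 in wild type and 8.83, 9.04 and 8.94 in Sox4 leukaemic cells. Cdkn1b, the gene of the inhibitor p27, read 5.45, 5.43 and 4.27 against 8.99, 8.87 and 8.74. Both were higher in every Sox4 array than in any wild type array, by 4.12 (SE 0.15, adjusted p = 5.02e-08) and 3.82 (SE 0.27, adjusted p = 3.31e-06). K/L leukaemic means of these genes were high as well, at 7.94 and 9.29. The cyclin genes Ccnd3 and Ccnd1 were higher by 1.77 and 1.56. All 3 probe sets of Ccnd1 were higher, whereas 1 of the 3 of Ccnd3 was lower without overlap, from a mean of 5.71 to 4.29. The E2F genes E2f8 and E2f7 were higher by 2.14 and 2.08. Cdkn1c, an imprinted inhibitor, was lower by 1.38, and Cdkn2a and Cdkn2b were too dim to be tested.

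Targets of p53 were lower in 10 and higher in 6 of 24, with a median of -0.06. Pmaip1, which encodes the death-promoting protein Noxa, read 8.66, 9.07 and 8.95 in wild type and 5.72, 5.57 and 5.45 in Sox4 leukaemic cells. Perp, a membrane protein that acts in p53-dependent cell death, read 9.9, 9.95 and 8.99 against 5.94, 5.9 and 5.53. These genes were lower by 3.31 and 3.82, and both were lower than in the K/L leukaemic cells too, by 2.47 and 4.37 (adjusted p = 5.64e-07 and 6.07e-07). Trp53inp1 was lower by 2.92 and Sesn1 higher by 1.07. In the BCL2 family 4 of 15 were higher and 3 lower, 46.7 percent called against 47.8 percent of all tested genes. The survival gene Bcl2 was higher by 2.11 on the probe set used and on 5 of 5 probe sets in direction.

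Growth and metabolism genes were shifted upwards in moderate steps. Of 48 Myc, ribosome biogenesis and nucleolar genes 27 were higher and 3 lower, with a median of 0.48. Among them the acetyltransferase gene Nat10 was higher by 1.28 and the spermidine synthase gene Srm by 1.63. The other Nat10 probe set was higher by only 0.08. In the serine, one-carbon and ATF4 list 16 of 32 were higher and 2 lower, led by Slc7a5, a transporter of large neutral amino acids, which read 7.5, 7.75 and 7.15 in wild type and 9.4, 9.5 and 9.53 in Sox4 leukaemic cells. Heat shock and ER folding genes were higher in 15 and lower in 3 of 30. The heat-inducible chaperone gene Hspa1b read 3.4, 3.69 and 3.55 in wild type and 7.43, 7.74 and 7.65 in Sox4 leukaemic cells, the largest rise of the list at 4.06 (SE 0.72, adjusted p = 0.00113). Its near-identical copy Hspa1a, whose signal may not be separable from it, was higher by 3.31. Sdf2l1 and Dnajc3, both of the ER, were higher by 1.87 and 1.3, but 9 were called higher without Sox4 array 1. Of 29 glycolysis genes 13 were higher and 3 lower. Ldhb, a lactate dehydrogenase subunit, read 11.94, 12.21 and 12.35 in wild type and 10.16, 10.34 and 10.38 in Sox4 leukaemic cells, a fall of 1.87 against the direction of the list.

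Mitochondrial genes were called no more often than tested genes as a whole. Oxidative phosphorylation subunits were higher in 24 and lower in 4 of 71, with a median of 0.18, and without Sox4 array 2 only 13 were higher. The share called was 39.4 percent, against 47.8 percent of all tested genes. Few were lower, whereas 21.1 percent of all tested genes were. Mitochondrial ribosomal proteins were higher in 26 and lower in 8 of 74 (45.9 percent called), with a median of 0.11. Mrpl52 had their largest difference, 1.86, and its 4 probe sets were higher by 0.06 to 2.06. The count of 8 lower fell to 4 without Sox4 array 1, 4 without Sox4 array 2, 1 without Sox4 array 3 and 2 without wild type array 1. Cholesterol synthesis genes were higher in 5 and lower in 3 of 22, 36.4 percent called against 47.8 percent of all tested genes. Their higher count was 8 without Sox4 array 2, 2 without Sox4 array 3 and 3 without wild type array 3, and 1 was lower without any of Sox4 array 2, Sox4 array 3 or wild type array 2.

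Schlafen, annexin and S100 genes were called in 21 of 25, 17 higher and 4 lower, with a median of 1.05. The summed linear level of its 29 members on the arrays went the other way, from 25003 to 30777 on the wild type arrays to 14323 to 15110 on the Sox4 arrays. S100a4, a calcium-binding protein gene of motile cells, read 3.26, 3.12 and 3.23 in wild type and 6.7, 6.87 and 6.84 in Sox4 leukaemic cells. S100a10 and Anxa2, which form a complex at the membrane, were higher by 3.17 and 1.74, each with 3 of 3 probe sets in that direction. Slfn9 was higher by 1.98 against the fall of Slfn4. Of 16 imprinted genes 1 was higher and 4 lower, 31.2 percent called against 47.8 percent of all tested genes. The one that rose was Grb10, an adaptor that dampens insulin receptor signalling, which read 3.76, 4.56 and 4.33 in wild type and 7.93, 7.22 and 7.71 in Sox4 leukaemic cells, while Nnat and Igf2r were lower by 3.6 and 2.16.

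Markers of cells outside the gate were given the same reading. In the T and NK list 6 of 16 tested genes were higher and 3 lower, 56.2 percent called against 47.8 percent of all tested genes. Its summed linear level was 1955 to 2687 on wild type and 2892 to 3229 on Sox4 arrays. Its largest rise, Cd27, is shared with progenitors, and Cd3e stood at 4.95 and 5.3 (adjusted p = 0.0789). In the B cell list 2 of 12 were higher and 3 lower, 41.7 percent called and so under that share. Only 1 was higher without Sox4 array 2, wild type array 1 or wild type array 3, and 5 were lower without the last of these. It had a summed level of 6748 to 7237 on wild type and 4015 to 4611 on Sox4 arrays. Cd79b, a chain of the B cell receptor complex, was higher by 1.9, and Pax5, the factor that defines B cells, was dim and did not pass (difference -0.24, adjusted p = 0.253, or -0.4 with an adjusted p of 0.0318 without wild type array 3). In the stroma and endothelium list 1 of 8 was higher and 1 lower, 25 percent called against 47.8 percent of all tested genes. There were 2 higher without wild type array 2 and 3 lower without wild type array 1. The part of admixed cells in any result was not tested.

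**Figure D4:**
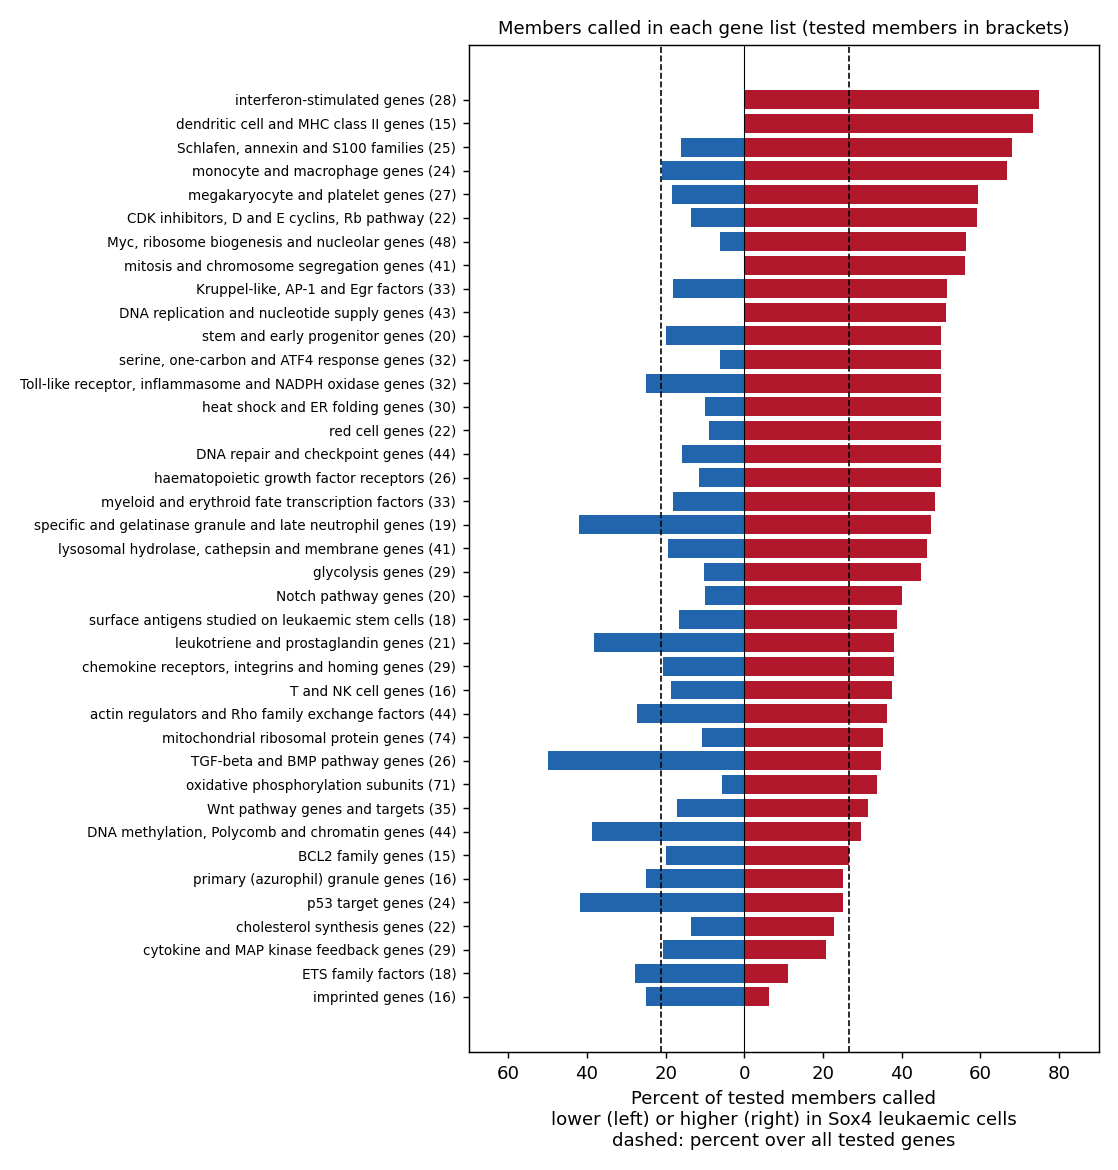
Percent of the tested members of each gene list called higher (red, right) or lower (blue, left) in Sox4 leukaemic cells, with the number of tested members in brackets. Dashed lines mark the 26.7 percent higher and 21.1 percent lower of all tested genes. Interferon-stimulated, MHC class II, mitosis and DNA replication genes have no blue bar. The TGF-beta and BMP list has the longest one of the lists drawn, which are those with at least 15 tested members.

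Against the K/L leukaemic cells, 3702 genes were called in the Sox4 leukaemic cells (28.9 percent). Both leukaemias were compared with the same wild type arrays, so only values side by side and this direct contrast are given. By chromosome, the median difference from wild type lay between -0.07 for chromosome 18 and 0.11 for chromosome 19.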

How the data were processed

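Biotin-labelled cRNA was made from 5 ug of total RNA of each sorted sample for Affymetrix arrays, per the labels' protocols. The authors deposited intensity values on a linear scale, 1 for each of 45101 probe sets and array, with a floor of 8. The submitters' processing notes name RMA without its settings. Values were log2 transformed with no further scaling, and array medians lay between 5.43 and 5.55. In the platform annotation 34958 probe sets had 1 gene symbol, 932 had several and 9211 had none. Each gene kept its brightest probe set over the 9 arrays, one ending in _x_at only where nothing else was there. Genes were tested where 3 or more arrays exceeded the 40th percentile of their own values.

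The test was lmFit and eBayes of limma 3.58.1 under R 4.3.3, fitted once over 9 arrays with group as the only term, and adjusted by Benjamini-Hochberg at 0.05. The same fit gave Sox4 minus K/L. With 3 against 3 arrays a permutation test cannot go below a p of 0.1, so none is given, and precision is limited by how few arrays there are. The labels share replicate numbers across groups, but deviations of same-numbered arrays correlated by only -0.024 to 0.082, so the numbers were not used as pairs. Named genes were, per direction, the 15 largest differences without overlap, the 15 largest above the 40th percentile in both groups, and up to 8 members of smallest p with the largest rise and fall of each list. Uncharacterised transcripts were left out, and Sox4, Cebpa, gate and sex genes were always kept. Not all of them are printed. Members that complete a family, such as liver plasma proteins, dim gate genes, Mpo, Elane, Hba-a1 and Pax5, were added, and Spi1 was added after its values were seen. The comparison and the gene lists were chosen with earlier results of these data known. Promoter sequences are from RefSeq, assembly GRCm38.p6.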

Additional observations from a re-analysis of the deposited data

Results flagged for a closer look

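Some genes of the text differed from wild type in opposite directions in the 2 leukaemias, at least 2-fold and past the limma threshold in each, and the direct Sox4 minus K/L difference was also called. The interferon-induced membrane protein genes Ifitm3 and Ifitm1 had differences of 7.13 and 5. Klf9, a Kruppel-like factor induced by glucocorticoids, differed by 6.85, Zcchc3, which encodes a co-sensor of nucleic acids, by 5.25 and Wfdc21, a whey acidic protein gene of neutrophils, by 4.72. Il6st, the shared chain of interleukin 6 family receptors, differed by 4.21, Cybb, the catalytic subunit of the phagocyte oxidase, by 4.04 and Ms4a2, the beta chain of the IgE receptor, by 3.6. Il5ra, the interleukin 5 receptor, ran the other way at -3.96. For all of these genes but Ms4a2, wild type array 3 was the lowest wild type array.

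Probe sets outside the comparison carried signal too. Of the probe sets with several gene symbols or none, 5112 were bright enough to test and 2020 were called by limma (39.5 percent), 733 higher and 1287 lower in Sox4 leukaemic cells. At least 2-fold changes were found in 300 that were higher and 608 that were lower. They are unnamed here and enter no gene count.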

How the results depend on the processing

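Across the other settings the count of called genes stayed within 1.5 times of 6135. It was 6209 of 12009 with the mean of all probe sets of a gene, 5483 of 9453 with a stricter filter on dim genes, 6201 of 18194 with none, 5498 with only the 6 arrays compared and 6595 with array weights. Leaving out each array in turn gave 5224 to 6343 called genes, 2930 to 3502 higher, 2277 to 2841 lower and 1903 to 2119 called and at least 2-fold. A test against a 2-fold change, in place of the 2-fold limit after the test, called 846 genes, against 1997 with that limit. This count did not stay within 1.5 times. Centring arrays on their medians or quantile normalization gave 3519 and 3639 higher and 2633 and 2577 lower. Whether the replicate numbers pair the samples is not given in the labels. With the replicate block 5999 genes were called, 3359 higher and 2640 lower, 1997 of them at least 2-fold. Of 9 arrays, 3 correlated best with an array of their own number, which cannot settle whether same-numbered arrays share a batch. Of 191 tested genes named in the text, 187 kept direction and side of the threshold under all 16 alternatives that could test them, and none was reversed. Most of these genes were picked by size or smallest p on the same arrays. Their stability therefore does not speak for all 6135 calls, of which 5672 were also made without wild type array 3. The exceptions were Xist, Kdm5d, Elane and Pax5.

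Limits are the number of arrays, wild type array 3, the unresolved source of Sox4 array 3, the unlike sex signal of the groups, and signal near background. Of the genes called and at least 2-fold, 278 of those higher had a wild type mean, and 193 of those lower a Sox4 leukaemic mean, under the 40th percentile of array values, where a fold change is compressed.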
